A study of Mus musculus with 6 samples.

Results

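The serpins (serine protease inhibitors) are a protein family whose genes carry the symbol Serpin, a clade letter and a number. All gene rows with such a symbol were taken and the pseudogene names ending in -ps were left out, which gave 62 genes among 24421 gene rows. RNA was sequenced from mouse colon in 2 groups of 3 samples each. In the DSS group chronic colitis had been brought about by dextran sulfate sodium, a polymer toxic to the epithelium of the large bowel, and the other group is labelled as control only. All 6 samples carry the strain label C57BL/6 and an age label that gives 7 weeks, and no transgene or deletion is named. The labels do not state the number of DSS courses, nor whether each sample is a mouse of its own, and the p-values therefore reflect sample-to-sample spread that may be technical.

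An inhibitory serpin presents an exposed loop to a protease, which cleaves it and is then trapped in a covalent complex, so that inhibitor and enzyme are consumed together. Clade A holds mostly secreted proteins of blood plasma, many of them made in the liver, and clade B holds proteins that mostly stay inside cells, where they guard against granule and lysosomal proteases. Clades C to I include the inhibitors of clotting, plasminogen activation and complement, and also members that inhibit nothing, such as a collagen chaperone. In the inflamed gut, proteases are released by neutrophils, lymphocytes, mast cells, epithelium and stroma, and serpins are among their main opponents.

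Values are FPKM, a level scaled to transcript length and library size, so genes can be set side by side. Each sample held 11849 to 12543 genes at 1 FPKM or more, and read totals are unknown. Where 3 values of a group follow each other, they stand in the order of replicates 1 to 3. On the first principal component DSS 1 scored -18.98, against -51.17 in DSS 2 and -47.53 in DSS 3, and the control samples scored 38.1 to 39.9, so DSS 1 lay nearer to the controls than the other DSS samples did. Colonocyte markers were read in every sample, with all 10 tested, 5 called lower, none called higher, and summed FPKM of 4071 to 4826 in DSS and 7849 to 10231 in control colon. DSS 1 alone held pancreatic exocrine transcripts such as Amy2a5 (16.5 FPKM), Cela2a (9.32 FPKM) and Pnlip (3.88 FPKM), which were listed at 0 in the other 5 samples. Of 8 such markers 1, Cela1, was tested and called lower, and Prss1 was at 0 in all samples. The sums were 77.4 to 345 FPKM in DSS and 475 to 737 FPKM in control colon. Cela1 made up most of each sum, with 308, 77.2 and 89.0 FPKM in the DSS samples, against 474, 737 and 670 FPKM in the controls. Of the other markers only Cpb1 was above 0 in the controls (at most 0.479 FPKM).

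Of the 62 serpin genes 17 reached 1 FPKM in at least 3 samples and were tested, 27 were above 0 in some sample but below that level, and 18 were listed at 0 in all 6 samples. A difference was called where the Benjamini-Hochberg adjusted p of limma, over all 12348 genes tested, was under 0.05. By that measure Serpina3f, Serpina3g, Serpina3i, Serpina3m, Serpina3n, Serpinb6b, Serpinb9 and Serpine2 rose in DSS colon, 8 of 17, and none fell (12 of 17 had an unadjusted limma p under 0.05 in either direction). Over all genes tested, 6.34% were called higher and 2.56% lower, 8.9% in either direction, and 28.3% had an unadjusted p under 0.05. The count of 8 fell to 5 with no filter on low values, to 1 without DSS 3, to 4 without DSS 1 and to 2 or 3 without a control, and in the fits without a DSS sample the 4 Serpina3 genes read at 1 FPKM in DSS colon only were not tested. The median log2 fold change of log2(FPKM + 1) was 0.87 over the 17 tested serpins and 0.13 over all tested genes. Serpina3c, Serpina3f, Serpina3i and Serpina3m passed the 1 FPKM level through DSS samples only, so the count of rises and the median are descriptions of these genes and do not carry over to the untested members. In DSS colon the 3 values lay above all 3 control values for 9 tested serpins and below them for 2, where 25.6% and 9.51% of all tested genes did so. Serpina3c, Serpina3f, Serpina3i and Serpina3m are among the 9, and their separation was fixed by their passing the level through DSS samples only. Median-of-ratios scaling, which brings the median log2 fold change of all genes from 0.13 to -0.0024, gave 8 serpins higher and upper-quartile scaling 7, while under median-of-ratios scaling the calls over all genes shifted from 783 higher and 316 lower to 519 higher and 504 lower. In bulk tissue a change in the number of cells of a type and a change in RNA per cell cannot be told apart.

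**Figure D1:**
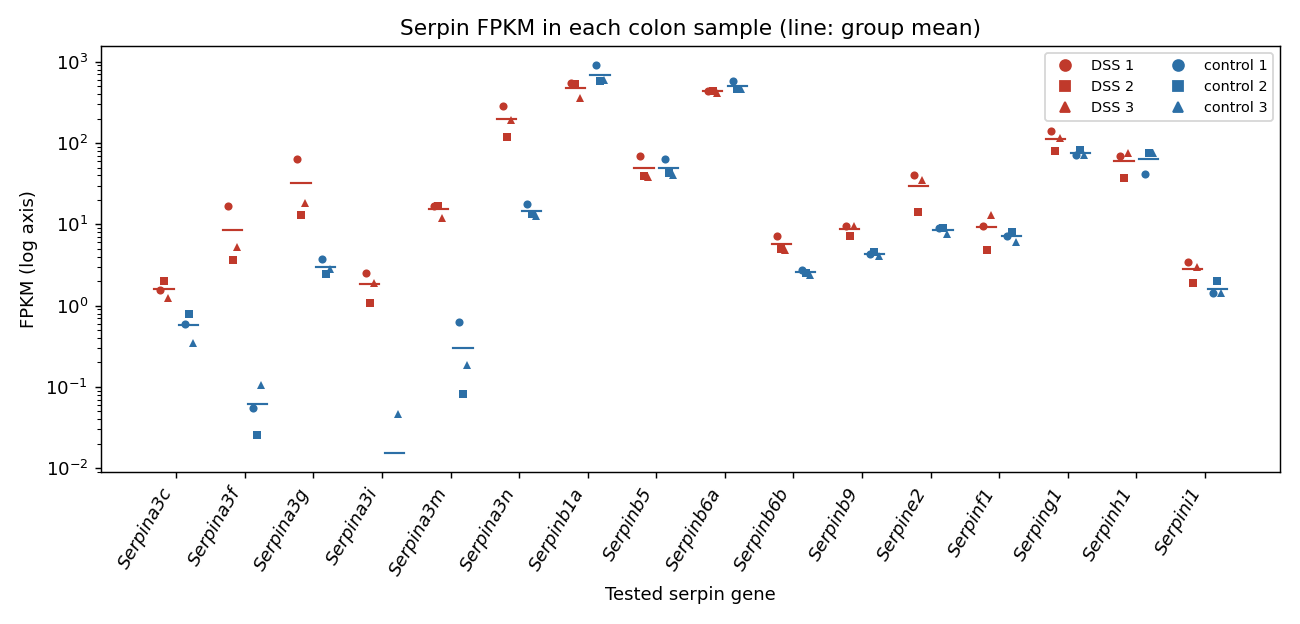
FPKM (log axis) of 16 of the 17 tested serpin genes in the DSS samples (red, left of each pair) and control samples (blue, right); each symbol is a sample and each line a group mean. The 2 control samples in which Serpina3i was listed at 0 cannot be drawn on this axis but count in its mean. The Serpina3 genes stand apart between the groups, while Serpinb1a and Serpinb6a stay above 350 FPKM in all samples.

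The strongest signal per kilobase came from intracellular inhibitors in both groups. Serpinb1a, the mouse counterpart of the leukocyte elastase inhibitor, which blocks neutrophil elastase, proteinase 3 and cathepsin G, stood at 547, 539.5 and 355 FPKM in the DSS samples, against 904, 575 and 601 FPKM in the controls. The DSS values lay below the control values without overlap, yet the difference did not pass the test (log2 fold change -0.53 ± 0.24 SE, adjusted p = 0.205). Serpinb6a, an inhibitor of cathepsin G among other proteases, stood at 438, 441 and 415 FPKM in the DSS samples, against 581, 457 and 459 FPKM in the controls. Here too the groups did not overlap and the test was not passed (log2 fold change -0.20 ± 0.15 SE, adjusted p = 0.405). In both genes control 1 was the highest sample, and exons of Serpinb6a overlap those of Nqo2 and Ripk1 on the opposite strand, whose reads cannot be told from its own in a library without strand. By mean FPKM Serpinb1a ranked 213th of all rows in DSS and 150th in control colon, and Serpinb6a ranked 233rd in DSS and 211th in control colon.

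Serpinb5, or maspin, an epithelial member that inhibits no known protease, had 69.3, 39.3 and 37.96 FPKM in the DSS samples, against 64.04, 43.3 and 40.8 FPKM in the controls (log2 fold change -0.04 ± 0.28 SE, adjusted p = 0.936). Its highest values were in DSS 1 and in control 1, and the groups overlapped throughout. Markers of squamous epithelium, which also expresses Serpinb5, summed to 29.1, 38.6 and 42.3 FPKM in the DSS samples, against 110.0, 11.4 and 10.8 FPKM in the controls, over 11 genes of which 3 were tested and none was called. Sprr1a, an envelope gene of stratified epithelium, made up 103 FPKM of the sum in control 1, and of the keratin genes Krt13 stood at 1.52 FPKM in DSS 1, at 2.14 FPKM in control 1 and at most at 0.232 FPKM elsewhere. Krt14 (3.59 FPKM in DSS 1, 2.33 FPKM in control 1) and Krt6a (1.69 FPKM in DSS 1, 0.6999 FPKM in control 1) were also highest in DSS 1 and control 1, the samples with the highest Serpinb5. Other genes of the list did not follow this order. Krt10 had 1.40, 2.84 and 2.19 FPKM in the DSS samples, against 1.32, 2.03 and 1.76 FPKM in the controls. Krt5 was highest in DSS 1 (1.41 FPKM) but listed at 0 in control 1, and Krt1 and Krt4 reached at most 0.117 FPKM. Among the DSS samples Sprr1a was lowest in DSS 1 (19.4 FPKM). The part of squamous cells in the Serpinb5 values was not tested. Serpinb3a, Serpinb3b, Serpinb3c and Serpinb3d, the mouse relatives of the squamous cell carcinoma antigens, were listed at 0 in every sample.

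The summed FPKM of the 62 genes made up 0.268%, 0.197% and 0.209% of all FPKM in the DSS samples and 0.282%, 0.201% and 0.203% in the control samples. What differed was the make-up. Serpina3n contributed 16.5%, 8.80% and 14.6% of the serpin sum in DSS 1, 2 and 3 and 1.02%, 1.05% and 0.985% in control 1, 2 and 3. The share of Serpinb1a was 31.4%, 40.4% and 27.03% in the DSS samples and 52.6%, 44.9% and 46.5% in the control samples. These shares are linked, because a gene that takes more of the sum leaves less to the others.

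**Figure D2:**
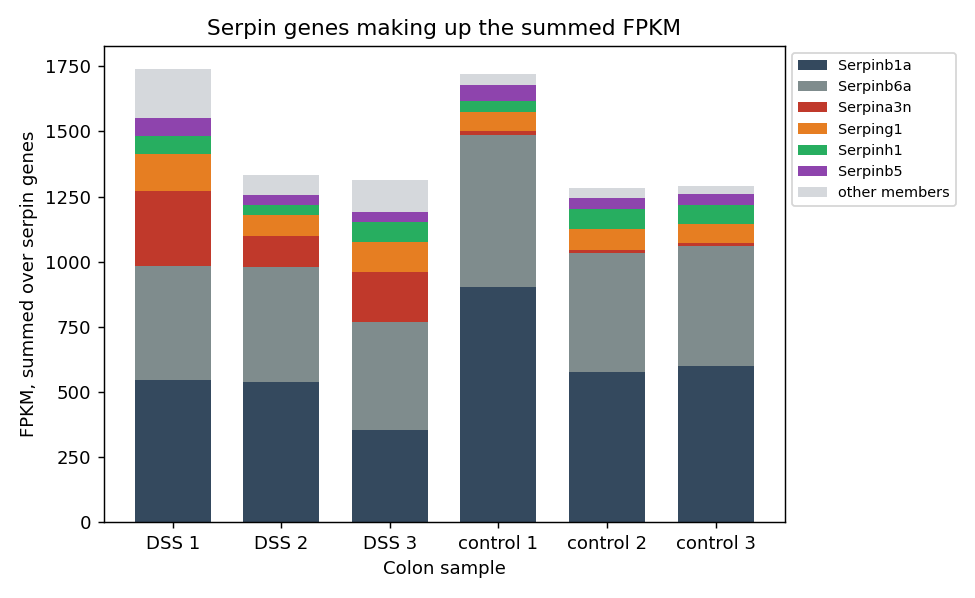
FPKM summed over the 62 serpin genes in each sample, DSS samples left and control samples right, split into the 6 genes with the highest means and all other members. Bars start at 0; the red Serpina3n segment is 117 to 287 FPKM in the DSS samples and 12.7 to 17.6 FPKM in the control samples.

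The gene group with the largest rises was Serpina3. Humans have a single SERPINA3 gene, which encodes alpha-antichymotrypsin, an acute-phase inhibitor of cathepsin G and chymase, and in the mouse it is represented by a row of related genes. Of the 24 clade A members 23 lie together on chromosome 12, with 1 other protein-coding gene among them. The 11 Serpina3 members, which Serpina5, Serpina12, Serpina9 and Serpina11 part from the Serpina1 genes, span 104112724 to 104414329 there (302 kb, GRCm38). Along this row the genes from Serpina3c to Serpina3n were read in DSS colon except Serpina3j, whereas Serpina3a and Serpina3j were listed at 0 in all samples and Serpina3b had 0.05396 FPKM in control 1 only.

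The 250 bases upstream of the start of Serpina3f, Serpina3g, Serpina3i and Serpina3n are shown because these 4 genes of the row all rose. Serpina3m rose too, but no upstream sequence was available for it. The windows shown are from RefSeq on GRCm38.p6, on the plus strand, 5′ to 3′, at chr12:104214294-104214543, chr12:104235897-104236146, chr12:104262872-104263121 and chr12:104406458-104406707. Capitals mark matches to the motifs searched on both strands.
Serpina3f: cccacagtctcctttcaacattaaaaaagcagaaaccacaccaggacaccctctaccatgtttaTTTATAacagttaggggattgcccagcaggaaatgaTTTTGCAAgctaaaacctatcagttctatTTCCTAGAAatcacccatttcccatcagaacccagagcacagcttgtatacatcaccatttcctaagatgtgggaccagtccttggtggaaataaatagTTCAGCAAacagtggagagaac
Serpina3g: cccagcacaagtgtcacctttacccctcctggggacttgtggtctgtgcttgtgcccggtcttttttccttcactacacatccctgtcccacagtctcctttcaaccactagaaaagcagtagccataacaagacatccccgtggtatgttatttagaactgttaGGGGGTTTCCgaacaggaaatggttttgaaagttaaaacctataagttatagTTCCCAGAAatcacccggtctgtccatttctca
Serpina3i: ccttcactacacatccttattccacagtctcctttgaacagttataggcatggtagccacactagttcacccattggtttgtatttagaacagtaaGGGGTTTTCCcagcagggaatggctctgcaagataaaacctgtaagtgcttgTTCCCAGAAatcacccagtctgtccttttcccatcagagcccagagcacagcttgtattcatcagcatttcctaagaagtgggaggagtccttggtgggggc
Serpina3n: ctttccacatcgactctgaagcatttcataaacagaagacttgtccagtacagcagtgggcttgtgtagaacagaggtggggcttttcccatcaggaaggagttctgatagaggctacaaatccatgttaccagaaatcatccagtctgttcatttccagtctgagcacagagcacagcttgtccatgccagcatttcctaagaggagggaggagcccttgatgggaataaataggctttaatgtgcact

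The motifs were the STAT type TTCNNNGAA, the AP-1 type TGANTCA, the C/EBP type TTGCNNAA, the box TATAAA, the interferon response element and the NF-kappaB decamer. Overlapping matches were all kept. A STAT-type match, TTCCTAGAA in Serpina3f and TTCCCAGAA in Serpina3g and Serpina3i, stood 121 to 113, 33 to 25 and 102 to 94 bases before the start in that order of genes. At the aligned place Serpina3n and Serpina3c carried TTACCAGAA, which is no match. Serpina3g and Serpina3i also shared an NF-kappaB-type match, GGGGGTTTCC and GGGGTTTTCC, upstream of the STAT-type match, and the window of Serpina3n held none of the 6 motifs. The STAT-type motif occurred in 7.02% and the NF-kappaB type in 7.25% of 32851 upstream windows of the same length, and in 10 and 3 of 61 windows of 52 serpin genes. A gene with several starts has several windows, so the same STAT-type match of Serpina11, and that of Serpina3f, is counted in overlapping windows. From the other start of Serpina3f its match stood 210 to 202 bases upstream. A match is a description of the letters and not of binding. Globally aligned, the windows of Serpina3f and Serpina3i were 82.2% identical over 219 aligned bases and those of Serpina3c and Serpina3n 92.7% identical over 247, while Serpina3i and Serpina3n shared 71.2% over 229. The windows of Serpina3g and Serpina3n shared 58.0% over 205, while those of Serpina3c and Serpina3g shared 74.1% over 158. The window of Serpina3a shared 56.0% over 218 with that of Serpina3g. The STAT-type match stood nearer to the start in Serpina3g than in Serpina3f and Serpina3i, so the Serpina3g window is offset from theirs. Its identities over whole windows may therefore understate the likeness of the stretches that align.

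Serpina3n, a secreted acute-phase serpin that in the mouse inhibits granzyme B and neutrophil elastase, had 287, 117 and 191 FPKM in the DSS samples, against 17.6, 13.4 and 12.7 FPKM in the controls. Every DSS sample exceeded every control by a wide margin, and DSS 1 was the highest. The mean was 198 ± 84.8 FPKM in DSS colon and 14.6 ± 2.62 FPKM in the controls (SD, n = 3 each), 13.6-fold higher in DSS, with a log2 fold change of 3.60 ± 0.31 SE and an adjusted p of 0.00122. Its rank by mean FPKM among all rows was 502nd in DSS and 4440th in control colon. The gene lies at 104406729 to 104414329 on chromosome 12, at the end of the row, and had no near-identical copy (95% identity or more over 200 bases) among annotated transcripts.

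Serpina3m, its neighbour, had 17.04, 16.9 and 11.8 FPKM in the DSS samples, against 0.634, 0.0825 and 0.185 FPKM in the controls. All 3 DSS samples lay far above the controls, and the log2 fold change was 3.65 ± 0.23 SE (adjusted p = 0.000372). Its annotated exons share 60 bases with Serpina3k, which did not reach the level for testing and had 0.408, 1.67 and 0.523 FPKM in DSS colon and a listed 0 in the 3 control samples. DSS 2 was the highest sample for Serpina3k but not for Serpina3m. Serpina3m was called in all 15 alternatives that tested it and Serpina3n in all 18.

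Serpina3g, which inhibits lysosomal cysteine cathepsins inside mouse immune cells, had 64.5, 13.01 and 18.2 FPKM in the DSS samples, against 3.78, 2.45 and 2.81 FPKM in the controls (log2 fold change 2.71 ± 0.54 SE, adjusted p = 0.0301). Serpina3f, next to it, had 17.03, 3.66 and 5.205 FPKM in the DSS samples, against 0.0554, 0.02601 and 0.105 FPKM in the controls (2.92 ± 0.47 SE, adjusted p = 0.0143). Both genes were several times higher in DSS 1 than in DSS 2 or 3, and neither pair of groups overlapped. The part of the pancreatic exocrine RNA of DSS 1 in these values was not tested. Serpina3i had 2.50, 1.09 and 1.88 FPKM in DSS colon and was listed at 0 in control 1 and 2 and at 0.0463 FPKM in control 3 (1.44 ± 0.22 SE, adjusted p = 0.00951). Transcripts of these 3 genes are at least 95% identical over 526 to 620 bases, and 2 of them match Serpina3h as closely, so how reads were divided among the genes is uncertain. Serpina3h, annotated as a transcribed pseudogene, had 0.932, 0.471 and 0.621 FPKM in the DSS samples, against 0.2602, 0 and 0.0666 FPKM in the controls and was not tested. Leaving out any control sample ended the call of Serpina3f (adjusted p = 0.0709 at most) and of Serpina3g, whose call also went without DSS 3 (0.111 at most), and Serpina3i lost its call without control 2 (0.0569). With no filter on low values Serpina3g was not called either (adjusted p = 0.0536).

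Serpina3c had 1.57, 1.99 and 1.23 FPKM in the DSS samples, against 0.597, 0.8005 and 0.343 FPKM in the controls. The groups were apart, and the difference missed the threshold (log2 fold change 0.72 ± 0.19 SE, adjusted p = 0.0617). Its upstream window is the nearest relative of that of Serpina3n among those compared. The mean of Serpina3c in DSS colon was 1.60 ± 0.378 FPKM, against 198 ± 84.8 FPKM for Serpina3n (SD, n = 3 each). A link between upstream sequence and level was not tested.

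**Figure D3:**
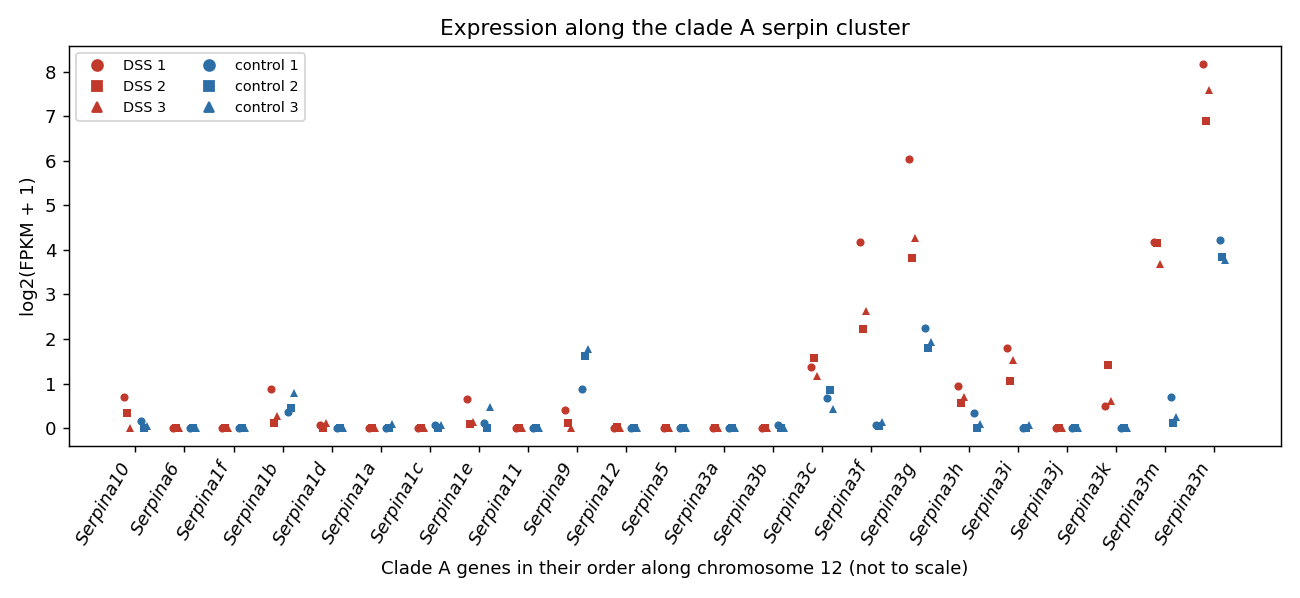
log2(FPKM + 1) of the 23 clade A genes on chromosome 12, in their order along the chromosome and not to scale, in DSS samples (red, left of each pair) and control samples (blue, right); each symbol is a sample. From Serpina10 to Serpina3b no gene but Serpina9 exceeds 0.832 FPKM in any sample, and the DSS samples lie above the control samples from Serpina3c to Serpina3n except at Serpina3j.

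Other clade A genes are known mostly from liver and plasma. Serpina1a to Serpina1e, the mouse genes of alpha-antitrypsin, which neutralises neutrophil elastase in blood, reached at most 0.832 FPKM (Serpina1b in DSS 1). Their transcripts are near-identical, so the division of reads among them is uncertain. Serpina6, the carrier of corticosteroids, was listed at 0 throughout, and Serpina7, the carrier of thyroxine, had 0.0282 FPKM in control 1 only. Of 11 hepatocyte markers 5 were tested, with sums of 58.9 to 144 FPKM in the DSS samples and 34.1 to 50.9 FPKM in the controls. Hp, the haptoglobin gene, rose among them and made up most of the DSS sums, while the albumin gene Alb fell and stood at 0.0373, 0 and 0.0646 FPKM in the DSS samples, against 1.01, 1.04 and 1.08 FPKM in the controls. Serpina10, an inhibitor of clotting factors, had 0.632, 0.257 and 0 FPKM in the DSS samples, against 0.123, 0 and 0.0353 FPKM in the controls.

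Serpina9, known in humans from germinal centre B cells, had 0.329, 0.0819 and 0 FPKM in the DSS samples, against 0.8304, 2.07 and 2.404 FPKM in the controls. It did not enter the main test, since 2 samples reached 1 FPKM. With the level for testing set at 0.1 FPKM it was called lower (log2 fold change -1.24, adjusted p = 0.031), and with no such level it was not (adjusted p = 0.0557).

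Among the clade B genes 2 further members rose. Serpinb9, which inhibits granzyme B and protects lymphocytes and other cells from it, had 9.600, 7.28 and 9.43 FPKM in the DSS samples, against 4.34, 4.54 and 4.08 FPKM in the controls. The values of the groups were well separated and the spread was small in both. The mean was 2.03-fold higher in DSS, at 8.77 ± 1.29 FPKM against 4.32 ± 0.229 FPKM in the controls (SD, n = 3 each), with a log2 fold change of 0.87 ± 0.17 SE and an adjusted p of 0.0223. Serpinb6b, a paralogue of Serpinb6a, had 7.29, 5.02 and 4.86 FPKM in the DSS samples, against 2.74, 2.54 and 2.396 FPKM in the controls (0.90 ± 0.19 SE, adjusted p = 0.0313). Serpinb6a and Serpinb6b had log2 fold changes of opposite sign, and the difference between the genes was not tested. Neither Serpinb9 nor Serpinb6b was called when DSS 3 or a control was left out, with adjusted p up to 0.104 for Serpinb9 and 0.127 for Serpinb6b. Serpinb6b also lost its call with no filter on low values.

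The upstream window of Serpinb9 is shown because it held 1 of the 2 interferon-response-type matches (read on the opposite strand) found in serpin windows, the other lying before a start of Serpinb6a. It is at chr13:33004291-33004540, plus strand, with the match in capitals, 46 to 37 bases before the start. The motif occurred in 2.98% of all upstream windows.
Serpinb9: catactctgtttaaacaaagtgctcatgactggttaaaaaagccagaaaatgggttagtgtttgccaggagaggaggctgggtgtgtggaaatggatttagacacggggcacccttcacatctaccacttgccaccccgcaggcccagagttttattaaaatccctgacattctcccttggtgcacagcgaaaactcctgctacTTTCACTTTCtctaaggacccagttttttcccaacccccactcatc

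Granzyme B is the protease that Serpinb9 and Serpina3n inhibit. Of 10 lymphocyte granzyme and perforin genes 2, Gzma and Gzmb, were tested and both rose, and the other 8 were too low to test. Gzmb had 3.65, 23.00 and 9.04 FPKM in the DSS samples, against 1.199, 0.635 and 0.608 FPKM in the controls (log2 fold change 2.53, adjusted p = 0.0357, up to 0.129 over 18 alternatives, 7 of which ended the call). Gzma had 22.04, 117 and 21.5 FPKM in the DSS samples, against 1.81, 0.391 and 0.917 FPKM in the controls (4.33, adjusted p = 0.0137), and lost the call without control 2 or control 3 (up to 0.0674). Both proteases were highest in DSS 2, the sample with the lowest Serpinb9 and Serpina3n among the DSS samples. T and NK cell markers summed to 25.8 to 59.4 FPKM in the DSS samples and 6.05 to 8.03 FPKM in the controls. Of 4 tested genes 3 were higher, and none of the list was at 0 in all samples. Macrophage and monocyte markers summed to 564 to 708 FPKM in the DSS samples and 365 to 440.2 FPKM in the controls, with 4 of 10 tested genes higher. Among the genes called higher, Nkg7, Cd3d, Clec4e and Arg1 reached 1 FPKM in DSS colon only. Lyz2 made up most of the macrophage and monocyte sums and was not called (limma adjusted p = 0.114). Of the other uncalled genes of that list, Csf1r and Cd68 had DSS means below the control means, and Ccr2, Adgre1 and Mrc1 above. The part of T and NK cells, macrophages and monocytes in the serpin values was not tested.

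The targets of Serpinb1a and Serpinb6a in neutrophils were hardly read. Elane, Prtn3 and Ctsg, the genes of neutrophil elastase, proteinase 3 and cathepsin G, did not reach the level for testing and summed to 0.855, 1.39 and 1.93 FPKM in the DSS samples, against 0.0428, 0.0864 and 0.436 FPKM in the controls. These genes are transcribed mainly in bone marrow precursors, and mature neutrophils carry the proteins. Neutrophil markers summed to 4098 to 6979 FPKM in the DSS samples and 7.10 to 30.1 FPKM in the controls, and all 8 tested, of 10 listed, were higher. Of these Mmp8, Cxcr2, Csf3r, Ltf and Ngp reached 1 FPKM in DSS colon only, so they entered the test through the DSS samples. The part of neutrophils in the serpin values was not tested. Of 10 mast cell proteases 3 were tested and none was called.

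The remaining clade B genes were scarce. Serpinb2, an inhibitor of urokinase found in macrophages and epithelium, had 0.462, 0.986 and 0.611 FPKM in the DSS samples, against 0.0987, 0 and 0.1804 FPKM in the controls. It was not tested at 1 FPKM, and with the level at 0.1 FPKM it was called higher (log2 fold change 0.62, adjusted p = 0.046), but not with no such level (adjusted p = 0.0603). Serpinb8 had 0.648, 0.6000 and 0.451 FPKM in the DSS samples, against 1.102, 1.04 and 0.493 FPKM in the controls. Serpinb9b reached 0.569 FPKM in DSS 3 and at most 0.121 FPKM elsewhere, and the other 5 Serpinb9 genes with a letter were listed at 0 in all samples. Serpinb1b and Serpinb1c, the relatives of Serpinb1a, reached at most 0.455 FPKM.

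Serpine2 rose. It encodes protease nexin, an inhibitor of thrombin and urokinase on cell surfaces and in matrix. Its values were 40.4, 14.1 and 34.8 FPKM in the DSS samples, against 9.03, 9.14 and 7.56 FPKM in the controls. DSS 2 lay close above the controls, and the other DSS samples lay well above. The log2 fold change was 1.56 ± 0.37 SE with an adjusted p of 0.0441, close to the threshold. The call was lost in 11 of 18 alternatives (adjusted p up to 0.151), and the direction held in all 18.

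Plaur, the urokinase receptor gene, had 18.7, 32.95 and 36.9 FPKM in the DSS samples, against 31.98, 6.41 and 5.24 FPKM in the controls. Control 1 lay within the range of the DSS samples and far above the other controls. Plaur passed without control 1 (log2 fold change 2.11, adjusted p = 0.0241) and not with it (adjusted p = 0.221, up to 0.467 over all alternatives).

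The plasminogen activator genes did not pass. Plau, the urokinase gene, had 13.6, 4.37 and 5.73 FPKM in the DSS samples, against 9.61, 7.78 and 6.003 FPKM in the controls (adjusted p = 0.885). Plat, the tissue plasminogen activator gene, had 18.4, 5.87 and 9.26 FPKM in the DSS samples, against 7.21, 4.77 and 5.31 FPKM in the controls (adjusted p = 0.24). Of the 15 genes of plasminogen activation and clotting 10 were tested, and Lrp1, the receptor that clears serpin-protease complexes, and the clotting factor gene F10 rose. F10 reached 1 FPKM in DSS colon only, with 1.31, 1.58 and 1.25 FPKM in the DSS samples, against 0.0621, 0.0214 and 0.0335 FPKM in the controls. Plg, the plasminogen gene, was listed at 0 in all samples. Vtn, the gene of vitronectin, a plasma and matrix protein, had 0.606, 1.48 and 0.809 FPKM in the DSS samples, against 0.216, 0.598 and 0.546 FPKM in the controls. Lrp1 (adjusted p = 0.0366) lost its call in 11 alternatives.

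Serpini1, or neuroserpin, an inhibitor of tissue plasminogen activator in neurons, had 3.47, 1.89 and 3.03 FPKM in the DSS samples, against 1.43, 1.99 and 1.43 FPKM in the controls (log2 fold change 0.52 ± 0.22 SE, adjusted p = 0.166). DSS 2 lay within the control values. Markers of enteric neurons and glia summed to 176, 75.2 and 78.3 FPKM in the DSS samples, against 75.4, 84.3 and 59.00 FPKM in the controls, with none of 7 tested called, so the highest sample was DSS 1 for both. Serpinc1 (antithrombin), Serpind1 (heparin cofactor), Serpinf2 (antiplasmin), Serpine3 and Serpini2 reached at most 0.858 FPKM, in Serpind1 in DSS 1. Serpini2, which is expressed in pancreas, was above 0 only in DSS 1 (0.1699 FPKM).

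Serping1, the inhibitor of the proteases that start the classical complement pathway, was the most abundant serpin outside clades A and B in both groups. Its values were 141, 80.6 and 115 FPKM in the DSS samples, against 71.3, 81.8 and 71.7 FPKM in the controls. DSS 2 fell within the control range, and the difference did not pass (log2 fold change 0.54 ± 0.21 SE, adjusted p = 0.148), although it passed without DSS 2 (log2 fold change 0.76, adjusted p = 0.0442). Its target C1s1 rose, with 85.1, 59.6 and 70.8 FPKM in the DSS samples, against 35.5, 38.3 and 34.2 FPKM in the controls (0.96, adjusted p = 0.0152). C1ra had 31.2, 16.03 and 21.2 FPKM in the DSS samples, against 12.5, 12.5 and 12.1 FPKM in the controls (adjusted p = 0.0801), and passed without DSS 2 (0.0377). C1s1 was the member called among 6 genes of complement start proteases, of which 3 were tested, and was not called when DSS 3 or a control was left out (adjusted p = 0.0795 at most).

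Serpinh1 and Serpinf1, stromal members that are not protease inhibitors, did not pass the test. Serpinh1, the collagen chaperone of the endoplasmic reticulum, had 69.1, 37.5 and 75.7 FPKM in the DSS samples, against 41.8, 75.9 and 74.98 FPKM in the controls (log2 fold change -0.09 ± 0.33 SE, adjusted p = 0.886). DSS 2 and control 1 were low and the other 4 samples close together. Its client gene Col1a1 had 19.3, 6.07 and 31.1 FPKM in the DSS samples, against 11.8, 9.39 and 10.6 FPKM in the controls, and Col3a1 had 268, 115 and 359 FPKM in the DSS samples, against 139, 135 and 111 FPKM in the controls. Both collagen genes were lowest among the DSS samples in DSS 2, and neither passed (adjusted p = 0.543 and 0.231), nor did any of the 16 genes of collagens and their chaperones (log2 fold changes had a median of 0.43). Without DSS 2 Col1a1 (0.0408) and Col3a1 (0.0166) passed. Serpinf1, or pigment epithelium-derived factor, which restrains vessel growth, had 9.598, 4.91 and 13.1 FPKM in the DSS samples, against 7.28, 8.09 and 6.14 FPKM in the controls (0.24 ± 0.31 SE, adjusted p = 0.657).

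DSS 2 held the lowest DSS value in 11 of the 17 tested serpins and DSS 3 in the other 6, while DSS 1 held the highest in 12. Among the 11 were Serpina3f, Serpina3g, Serpina3i, Serpina3n, Serpinb9, Serpine2, Serpinf1, Serping1, Serpinh1 and Serpini1. Fibroblast markers summed to 1061, 653 and 1096 FPKM in the DSS samples, against 738, 768 and 631 FPKM in the controls, with Pdpn the gene called among 10 tested and none at 0 in all samples. Endothelial markers summed to 99.6, 56.3 and 101 FPKM in the DSS samples, against 62.6, 71.3 and 76.04 FPKM in the controls, with 1 of 10 tested called higher. Both sums were lowest in DSS 2 among the DSS samples, and their part in the serpin values was not tested.

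**Figure D4:**
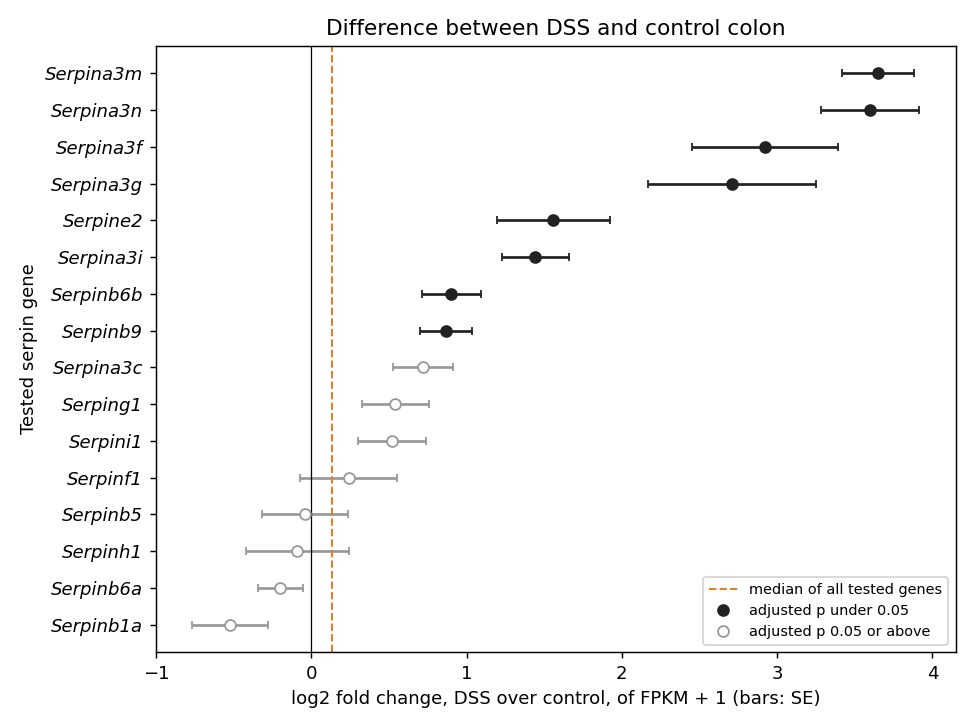
log2 fold change of FPKM + 1, DSS over control, with its SE for 16 of the 17 tested serpin genes; filled points have a limma adjusted p under 0.05, and the dashed line marks the median of all tested genes, 0.13. The 8 filled points range from 0.87 (Serpinb9) to 3.65 (Serpina3m).

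Protease inhibitors outside the family moved in both directions. Of 28 such genes 19 were tested. Wfdc21 and Wfdc17, which encode whey acidic protein domain proteins, Spink4, a Kazal-type gene of goblet cells, and Pi15 rose, 4 in all. Of these Wfdc21 and Pi15 reached 1 FPKM in DSS colon only. Wfdc2, Wfdc1, Agt, Csta1 and Spint1 fell, 5 in all. Wfdc17 had 410.3, 478 and 307 FPKM in the DSS samples, against 58.1, 40.6 and 46.5 FPKM in the controls (log2 fold change 3.01, adjusted p = 0.000539). Wfdc2 fell to 57.6, 34.8 and 42.6 FPKM in the DSS samples, against 275, 313 and 309 FPKM in the controls (-2.73, adjusted p = 0.000557). Agt, which encodes angiotensinogen, a serpin by structure whose symbol places it outside the 62 genes, had 2.69, 4.01 and 4.13 FPKM in the DSS samples, against 6.48, 8.02 and 7.71 FPKM in the controls (-0.88, adjusted p = 0.0347) and lost its call in 7 of 18 alternatives. Among 9 tested cysteine cathepsins, the protease class that Serpina3g inhibits, Ctsk, Ctsc and Ctso rose. Ctsz, Ctsf, Ctss, Ctsl and Ctsh had DSS means below the control means without passing (adjusted p = 0.0818, 0.107, 0.175, 0.221 and 0.819). Ctsb had a DSS mean above the control mean and did not pass either (adjusted p = 0.168). Ctsk was called in all 18 alternatives, while Ctsc was lost in 9 and Ctso in 11. Of 12 tested epithelial serine proteases Prss22 and Prss27 rose, both read above 1 FPKM in DSS colon only. Prss22 lost the call without control 2 (adjusted p = 0.0524) and Prss27 in 5 of 15 alternatives (up to 0.117).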

How the data were processed

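RNA-seq of 6 colon samples, 3 DSS and 3 control by their titles, was analysed. The deposited values are FPKM for each gene, as the columns are named per the file headers. The submitters' processing notes name TopHat2 2.1.1 and mm10. No source used here gives the program or the annotation behind the FPKM values. The library kit is non-directional, per the labels' protocols. Low values did not fall on multiples of a read (a bin of log2 ratios held at most 1.38% of low genes), so depth is unknown and count tests, intervals and floors are not used. The housekeeping gene Gapdh was listed at 0, 21.4 and 36.1 FPKM in the DSS samples and at 2.00, 0.117 and 0.145 FPKM in the controls, so zeros and values near 0 may be estimates that failed, and this limits what serpin values near 0 mean.

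The test used limma 3.58.1 (R 4.3.3, two-sided, with a mean-variance trend and robust moderation) on unscaled log2(FPKM + 1), for the 12348 genes reaching 1 FPKM in 3 or more samples. P-values were adjusted by Benjamini-Hochberg over those genes, with a threshold of 0.05. Such fold changes understate those of low genes. The fit was first tested on simulated data. Members and gene lists were chosen with earlier results of these data known. Of the tested members 1 enters the counts and is not reported by itself here. Genes named are the other tested members, untested members reaching 0.5 FPKM, called list genes (up to 4 a list) and direct targets or partners. Ctsb, Ctsf, Ctsh, Ctsl, Ctss, Ctsz, Serpini2 and the marker genes were named after their values were seen. Locations are from GENCODE vM21 (GRCm38) and upstream sequences from RefSeq (GRCm38.p6), which matched 52 of 62 members. BLAST+ 2.17.0 found near-identical transcripts, Biopython 1.88 aligned promoters and matplotlib 3.10.9 drew the figures. Alternatives covered pseudocounts, filters, scaling, moderation, the replicate block and each sample left out.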

Additional observations from a re-analysis of the deposited data

How the results depend on the processing

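Of the 17 tested serpins Serpina3m and Serpina3n were called in every alternative that tested them, and no called serpin changed direction in any. The count of serpins called higher, 8, became 5 with no filter on low values, where Serpina3g, Serpinb6b and Serpine2 were no longer called. The count called lower, 0, became 1 (Serpina9) with the filter at 0.1 FPKM. Over all genes, the counts were 519 higher and 504 lower under median-of-ratios scaling and 505 higher and 536 lower under upper-quartile scaling. With each sample left out in turn, the serpins called numbered 1 (without DSS 3) to 6 (without DSS 2) higher and 0 lower, and all genes called numbered 191 to 972 higher and 58 to 584 lower. Serpina3c, Serpina3f, Serpina3i and Serpina3m leave the test when a DSS sample is left out, so those fits were repeated with 1 FPKM required in 2 samples, an alternative chosen after seeing the data. These gave 4 to 9 serpins higher and 0 to 1 lower, and 322 to 1295 genes higher and 159 to 639 lower. The log2 fold change of 4 uncalled genes turned sign with samples left out: it ran from -0.32 to 0.16 for Serpinb5 (0.084 without DSS 2, 0.11 without DSS 3), from -0.040 to 0.59 for Serpinf1, from -0.37 to 0.22 for Serpinh1 and from -0.53 to 0.19 for Plau (0.028 without DSS 3). Samples share only a replicate number: deviations from group means correlated at 0.0818, 0.129 and 0.00308 for the same-numbered pairs, and DSS 3 correlated best with control 1. With the replicate block 7 serpins were called higher and 0 lower, and 640 genes higher and 255 lower overall. Why counts moved with scaling was not tested. Depth is unknown, so no precision can be given for genes under 1 FPKM.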
